A study of Gallus gallus with 6 samples.

Results

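Interferon-stimulated genes are the genes that cells switch on when interferon binds its receptor, and 10 of them were followed here through the ileum (the distal small intestine) of Taiping chickens. They are IFI6, IFI27L1, MX1, RSAD2, IFIT5, OASL, CMPK2, USP18, EIF2AK2 and IFIH1, and they were chosen by name from a table of 17623 genes and loci with earlier results of these data known. The symbol column gave 9 of them, and USP18 has a blank symbol there and was found by its description, ubiquitin specific peptidase 18. All 10 were among the 13807 rows that passed the filter on low counts, and the lowest count of any of them in any library was 151 (RSAD2 in FOS 2). Expression was measured by RNA sequencing in 3 control libraries, from birds on a basal ration of corn and soybean, and 3 FOS libraries, from birds that had fructooligosaccharide added to their drinking water at 1 mL per litre. Fructooligosaccharide is a short fructose polymer fermented by bacteria of the gut, and FOS below means this supplement and its group. All birds are labelled as male and 2 months old, and no label states whether each library is a different bird, so that p-values measure library-to-library spread. Values of 3 libraries are given in the order of their numbers, 1 to 3.

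Interferons are secreted proteins that warn tissue of viral infection. They act through paired receptor chains and Janus kinases on STAT and IRF transcription factors, which switch on a shared set of genes. In the gut both the epithelium and the immune cells beneath it can respond. The products of that set include sensors that recognise viral RNA, enzymes and binding proteins that stop its translation or copying, and brakes that end the response.

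Total deposited counts were 14668289 to 18106651 per library. Levels are given in CPM, counts scaled to the size of the library by the trimmed mean of M values (TMM). All 20 rows of the enterocyte marker list (absorptive epithelium) passed the filter and none was at 0 in any library. HINTW, a gene of the W chromosome that male birds lack, stood at 111 to 158 CPM in control 1, control 3, FOS 1 and FOS 3 and at 0.0697 to 0.173 CPM in control 2 and FOS 2, against the male label for those 4 libraries. FOS 1 stood apart from the rest: 301 genes lay at least 1 log2 unit above the mean of the other 5 libraries in it, against 94 to 191 genes in each of the others taken the same way. Results that rest on FOS 1 are therefore given with and without it.

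Every one of the 10 genes was highest in FOS 1, and the other 2 FOS libraries lay within or below the range of the controls. FOS 1 is the highest of the 6 libraries in 27.2% of all genes tested and lies at least 1 log2 unit above the mean of the other 5 in 2.18%, while both held for 10 of 10 members. Since the genes were chosen with this pattern known, these shares describe them and support nothing. The members together took 0.466% of all counts in FOS 1 and 0.0493% to 0.0948% in the other libraries. In a bulk library fewer cells of a type and less RNA per cell cannot be told apart.

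**Figure D1:**
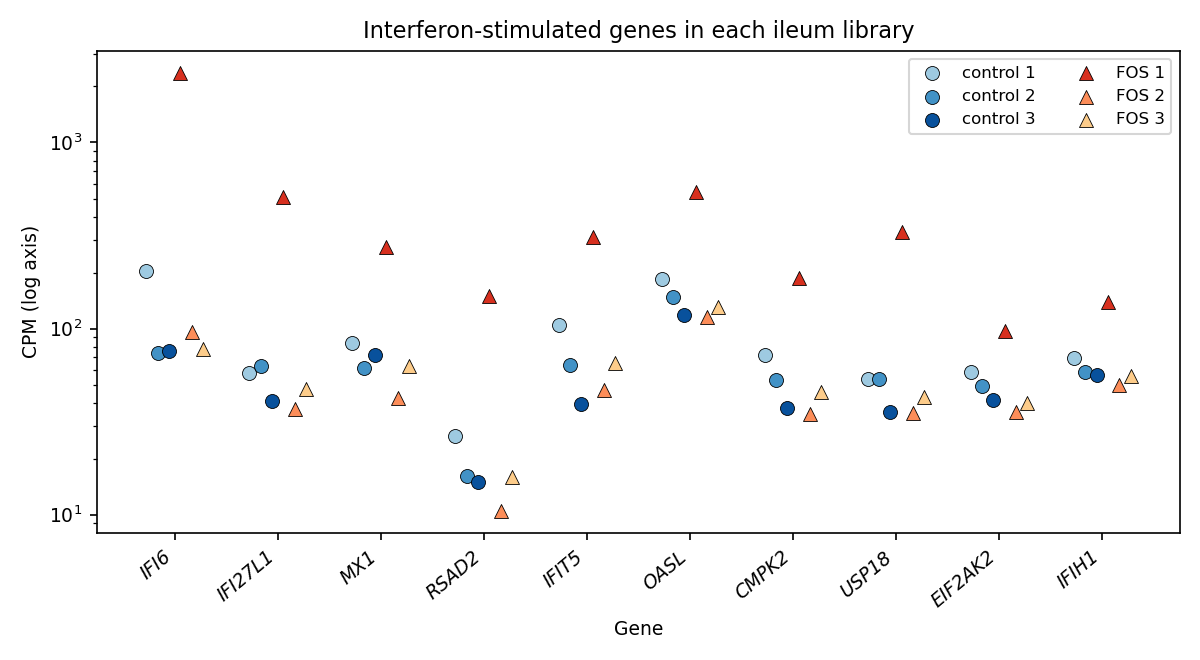
CPM (log axis) of the 10 interferon-stimulated genes, with 1 symbol per library, circles for control and triangles for FOS. FOS 1 lies above the other 5 libraries in all 10 genes, from 97.2 CPM for EIF2AK2 to 2373 CPM for IFI6, and control 1 is the highest of the others in 8 of 10.

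IFI6 (ENSGALG00000013575) and IFI27L1 (ENSGALG00000021627) belong to one family of small hydrophobic proteins, and the table annotates both to the mitochondrion. RefSeq lists the older name ISG12-2 for the first gene, and calls the second IFI27L2. IFI6 stood at 204, 74.2 and 75.4 CPM across the controls and at 2373, 95.6 and 77.9 CPM across the FOS libraries. FOS 1 was high, control 1 came next, and the other 4 libraries lay close together, so the groups overlapped. Its level in FOS 1 was 22.5 times the mean of the other 5 libraries (105 ± 55.6 CPM, SD, n = 5). IFI27L1 stood at 57.8, 63 and 40.9 CPM across the controls and at 511, 37 and 47.2 CPM across the FOS libraries. Only FOS 1 was outside the range of the controls on the high side, at 10.4 times the mean of the other 5 (49.2 ± 11 CPM, SD, n = 5). How alike IFI6 and IFI27L1 are in sequence was not examined. If the counting divided reads between them, their separate values are uncertain to that extent.

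The RNA sensor and the kinase that answers double-stranded RNA had the smallest difference between FOS 1 and the rest. IFIH1 (ENSGALG00000041192), also called MDA5, recognises long double-stranded RNA in the cytoplasm and is the main sensor of its kind in chickens, which lack RIG-I. It stood at 69.8, 58.4 and 56.6 CPM across the controls and at 139, 49.9 and 55.9 CPM across the FOS libraries. FOS 2 and FOS 3 both lay below every control library, and FOS 1 stood at 2.38 times the mean of the other 5 (58.1 ± 7.28 CPM, SD, n = 5). EIF2AK2 (ENSGALG00000010560), the kinase PKR, halts translation when it binds double-stranded RNA. It stood at 58.6, 49 and 41.5 CPM across the controls and at 97.2, 35.5 and 39.6 CPM across the FOS libraries, again with FOS 2 and FOS 3 below every control. FOS 1 was at 2.17 times the mean of the other 5 (44.8 ± 9.11 CPM, SD, n = 5). IFIH1 and EIF2AK2 were the members with both of these FOS libraries under all controls, 2 of 10, where 14% of all genes have that order.

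Among effectors that act on viral RNA or proteins, OASL (ENSGALG00000013723) is an oligoadenylate synthetase, a family that senses double-stranded RNA and in mammals activates RNase L. OASL stood at 185, 148 and 119 CPM across the controls and at 542, 116 and 130 CPM across the FOS libraries. FOS 2 lay just under the lowest control and FOS 1 at 3.89 times the mean of the other 5 (140 ± 28.2 CPM, SD, n = 5). MX1 (ENSGALG00000016142) is a dynamin-like GTPase that in mammals blocks influenza viruses. MX1 stood at 83.9, 61.2 and 72.1 CPM across the controls and at 276, 42.5 and 63.3 CPM across the FOS libraries. FOS 2 was the lowest library and FOS 3 lay within the controls, while FOS 1 reached 4.28 times the mean of the other 5 (64.6 ± 15.3 CPM, SD, n = 5). IFIT5 (ENSGALG00000045085) binds RNA with a triphosphate at its 5′ end. IFIT5 stood at 105, 63.8 and 39.4 CPM across the controls and at 310, 46.8 and 65.7 CPM across the FOS libraries. Both lower FOS libraries lay inside the wide control range, and FOS 1 stood at 4.84 times the mean of the other 5 (64.1 ± 25.2 CPM, SD, n = 5).

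RSAD2 and CMPK2 act on nucleotides and lie next to each other, with no protein-coding gene between them, in the RefSeq annotation of the assembly GRCg7b. RSAD2 (ENSGALG00000016400), or viperin, turns CTP into a chain terminator of viral polymerases, and CMPK2 (ENSGALG00000028982) is a mitochondrial kinase that phosphorylates CMP and UMP. RSAD2 stood at 26.5, 16.1 and 14.9 CPM across the controls and at 150, 10.5 and 16 CPM across the FOS libraries. CMPK2 stood at 72.1, 52.6 and 37.3 CPM across the controls and at 188, 34.8 and 45.4 CPM across the FOS libraries. Both genes put the 6 libraries in the same order, from FOS 1 through control 1, control 2, FOS 3 and control 3 to FOS 2. The level in FOS 1 relative to the mean of the other 5 was 8.91 for RSAD2 and 3.88 for CMPK2. Of the genes on their outer sides RNF144A, beyond RSAD2, was lowest in FOS 1. It stood at 12.6 CPM in FOS 1 and at 15.2 to 22.5 CPM in the others. SOX11, beyond CMPK2, was not among the genes tested.

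USP18 (ENSGALG00000013057), a brake on the response, removes the ubiquitin-like protein ISG15 from targets in mammals and blocks signalling from the type I receptor. RefSeq names the same gene identifier USP41. USP18 stood at 53.4, 53.7 and 35.6 CPM across the controls and at 330, 35.3 and 43 CPM across the FOS libraries. FOS 1 was at 7.48 times the mean of the other 5 (44.2 ± 9.11 CPM, SD, n = 5), and FOS 2 was level with control 3 at the low end.

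FPKM (fragments scaled to transcript length and library size, as deposited) is a scale that allows genes to be compared. On it the order of levels in FOS 1 differed from the order of the means over the other 5 libraries. Over the other 5 libraries IFI27L1 had the highest mean level, 96.4 ± 22.7 FPKM, followed by OASL at 92 ± 20 FPKM and IFI6 at 65.3 ± 35.8 FPKM (SD, n = 5). These 3 neighbours in the order overlapped in their ranges. IFIT5, CMPK2 and MX1 followed at 30.2 ± 12.4, 29.3 ± 9.52 and 24.5 ± 6.31 FPKM, and USP18, IFIH1 and EIF2AK2 at 17 ± 3.71, 14.5 ± 2.11 and 14.2 ± 3.14 FPKM (SD, n = 5), again with overlapping ranges inside each trio. RSAD2 was lowest at 5.79 ± 1.89 FPKM (SD, n = 5), and its range, up to 8.97 FPKM, lay below that of every other member. In FOS 1 IFI6 led at 1372 FPKM, ahead of IFI27L1 at 946 and OASL at 335 FPKM. A lead of IFI6 was not particular to FOS 1. In control 1 it stood at 129 FPKM, with OASL at 125 and IFI27L1 at 118 FPKM. IFI6 was the 34th most abundant row of the table by FPKM in FOS 1, against place 557 in control 1 and places 1478 to 1926 in the other 4 libraries.

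The comparison of all FOS with all control libraries did not separate the groups for any member. The groups overlapped in all 10 genes, where they do not overlap in 16.4% of all genes, and edgeR's quasi-likelihood test called 0 of 10 members at an adjusted p under 0.05, where it called 0.0217% of all genes. At an unadjusted p under 0.05 it had 0 members in either direction and so 0 higher, where 9.42% of all genes passed and 5.14% were higher. The log2 fold change was positive in 10 of 10 members (51.1% of all genes), from 0.21 (SE 0.38) for EIF2AK2 to 2.85 (SE 1.31, edgeR adjusted p = 0.556, with 0.425 to 0.908 over the alternatives) for IFI6. The median over the members was 0.92, beside 0.01 over all genes, and 0.53 with the replicate number as a block. It was 0.45 with limma on log2(FPKM + 1). With the block the log2 fold change ran from 0.07 for EIF2AK2 to 1.23 (SE 0.71, edgeR adjusted p = 0.639) for IFI6, and limma on log2(FPKM + 1) gave 1.24 for IFI6. DESeq2 called 1.08% of genes and 0 members. It gave no p for IFI6, IFI27L1, RSAD2 and USP18, so these could not pass. Over all 13807 genes it gave no p for 17.

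Without FOS 1, and with control 1 kept, the direction turned in all 10 members. The log2 fold change of FOS 2 and FOS 3 against the controls was then negative in 10 of 10 (49.7% of all genes), from -0.21 (SE 0.13) for IFIH1 to -0.52 (SE 0.31) for RSAD2, with a median of -0.37 beside 0.00 over all genes. For IFI6 it was -0.44 (SE 0.47). EdgeR called 0 members in this fit, where it called 0.0285% of all genes, and 0 members were lower at an unadjusted p under 0.05 (4.31% of all genes). The lowest adjusted p was that of EIF2AK2, 0.512 with edgeR's quasi-likelihood test. The members share their libraries, so 10 genes of one sign are not 10 separate observations. The value of IFI6 rests on control 1 (204 CPM). Its levels in FOS 2 and FOS 3 (95.6 and 77.9 CPM) lay above control 2 and control 3 (74.2 and 75.4 CPM). Control 3 was above FOS 2 in 8 of 10 members but above FOS 3 in only 3 of 10 (49.9% of all genes). Control 2 was above FOS 2 in 9 of 10 and above FOS 3 in 7 of 10. A fit without both FOS 1 and control 1 was not run.

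**Figure D2:**
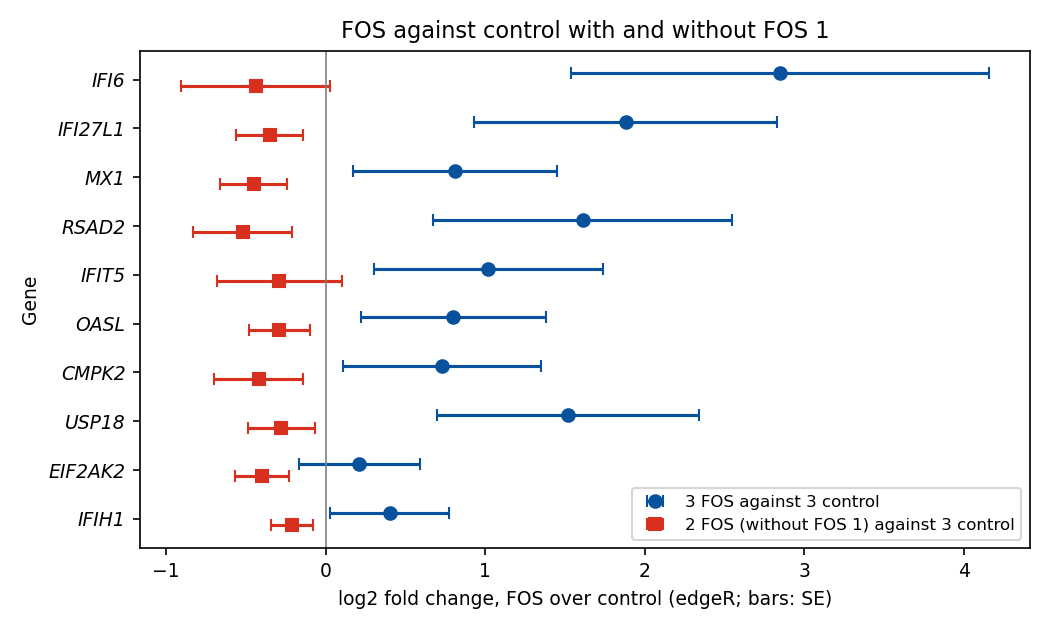
Log2 fold change of FOS over control from edgeR for the 10 genes (points, with bars of 1 SE), with all 3 FOS libraries (blue) and without FOS 1 (red). All 10 are positive with FOS 1, up to 2.85 for IFI6, and all 10 are negative without it, between -0.52 and -0.21.

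Apart from IFI6, the members also varied together among the other 5 libraries. Control 1 was the highest of these 5 in 8 of 10 members (20.4% of all genes), and it was above control 3, FOS 2 and FOS 3 in 10 of 10 each. FOS 2 was the lowest of all 6 libraries in 8 of 10 members (15.2% of all genes). The highest of the 5 was 1.4 to 2.74 times the lowest, while FOS 1 was 1.66 to 11.7 times control 1. Gene by gene the first ratio was the smaller. The 2 ratios were nearly equal for EIF2AK2 (1.65 against 1.66) and close for IFIT5 (2.65 against 2.96). RSAD2, OASL and CMPK2 put the 6 libraries in one order, IFI27L1 and USP18 in another, and EIF2AK2 and IFIH1 in another again. MX1, IFIT5 and IFI6 each had an order of their own, and IFI6 alone had FOS 2 above FOS 3 and control 2 lowest. Control 1 and FOS 1 carry the same replicate number, and no label says what that number marks. Control 2 and FOS 2, the libraries without W-linked transcripts, formed a pair in which control 2 was the higher in 9 of 10 members (49.6% of all genes). With the presence of W-linked transcripts as a covariate the median log2 fold change of the members over all 6 libraries was 0.73.

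Over the 45 pairs of members Pearson's r of log2(CPM + 1) across the 6 libraries was 0.921 to 0.999, with a median of 0.974, and Spearman's rho was 0.26 to 1.00, with a median of 0.89. These are descriptions of genes chosen for one pattern, measured in the same 6 libraries, with FOS 1 far from the other points in each. Among the 10 pairs that can be made of the other 5 libraries, 2 members ranked the pair alike in 4 to 10 cases, with a median of 8. IFI6 and another member were alike in 4 to 7 cases, and 2 members other than IFI6 in 6 to 10. The highest r, 0.999, was that of IFI27L1 with USP18 (alike in 10 of 10 library pairs) and of RSAD2 with IFIH1 (alike in 9 of 10). IFI6 and IFI27L1, of one family, had an r of 0.957 but ranked only 4 of 10 library pairs alike.

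The table's own annotation, which is not independent of a choice of interferon-stimulated genes by name, gave 6 of 10 members a role in the response to virus (0.601% of all genes tested), namely MX1, RSAD2, IFIT5, OASL, EIF2AK2 and IFIH1. It placed 4 of 10 in the mitochondrion (5.91% of all genes tested): IFI6, IFI27L1, RSAD2 and CMPK2. Double-stranded RNA binding was given to OASL, EIF2AK2 and IFIH1. Apart from RSAD2 and CMPK2 no member had another member as its nearest protein-coding gene. Of the neighbours, 12 others were measured, and FOS 1 was highest in 6 of these (27.2% of all genes). Their level in FOS 1 differed from the mean of the other 5 libraries by -0.51 to 1.07 log2 units. The median was 0.33, beside 0.00 over all genes.

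The other genes of the pathway come from lists of interferon ligands and receptors, nucleic acid sensors, signalling factors, further effectors, and interferon gamma and antigen presentation genes. In the order named they had 4, 17, 21, 42 and 15 genes tested. EdgeR called 0 of them, where it called 0.0217% of all genes. At an unadjusted p under 0.05, which 9.42% of all genes passed, it had 0 ligand or receptor genes, 1 sensor lower, 1 signalling factor higher and 2 lower, 3 effectors higher, and 2 interferon gamma or antigen presentation genes higher. Of the 3 effectors, 1 is a row with the symbol ISG20 that is described as apoptosis enhancing nuclease and named AEN by RefSeq. Its place among the effectors is therefore uncertain.

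Transcripts of interferon itself were scarce in all 6 libraries. The 13 rows described as type I interferons held 15, 41 and 42 counts in sum across the controls and 8, 25 and 29 counts across the FOS libraries, so FOS 1 was the lowest library. Their estimated counts are partly shared between near-identical copies. Interferon gamma held 5, 9 and 19 counts across the controls and 5, 3 and 1 counts across the FOS libraries. The 3 lambda rows held 0 to 2.01 counts in sum, where a count of 0 allows up to 0.166 to 0.205 CPM (3 counts). No ligand row passed the filter, and differences between libraries are not detectable at this depth for the lambda rows. Of the receptor chains, 4 were matched by symbol, and the row described as interferon lambda receptor 1 (ENSGALG00000004231), which has a blank symbol and is outside the list, was found by its description after its values were seen. All of them were expressed in every library. IFNAR1 stood at 46, 47.8 and 50.3 CPM across the controls and at 44.3, 40.5 and 41.8 CPM across the FOS libraries. IFNAR2, its partner in the type I receptor, stood at 49.1 to 61.9 CPM across the controls and at 74.8, 46.3 and 51.5 CPM across the FOS libraries. FOS 1 minus the mean of the other 5 was 0.51 log2 units for IFNAR2, 0.11 for IFNGR2, -0.02 for IFNAR1 and -0.21 for IFNGR1. Interferon lambda receptor 1, a chain of the receptor for the interferons of epithelia, stood at 29.4, 26.2 and 24.9 CPM across the controls and at 46.5, 48.1 and 67.4 CPM across the FOS libraries. Its groups did not overlap, as in 16.4% of all genes. FOS 3, not FOS 1, was its highest library, so it had another order than the members. Its log2 fold change was 1.01 (SE 0.17, unadjusted p = 0.000505, adjusted p = 0.388 with edgeR, which did not pass), and 1.11 without FOS 1.

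Among the nucleic acid sensors and their adaptors the median level in FOS 1 was 0.07 log2 units above the mean of the other 5, beside 0.00 over all genes. The highest library was FOS 1 in 7 of 17 (27.2% of all genes). The genes furthest above were TMEM173 (1.11), also called STING, DHX58 (1.08), a relative of IFIH1 that modulates it, and ZNFX1 (1.02), a helicase that binds viral RNA in mammals. DHX58 stood at 23.8, 24 and 18.2 CPM across the controls and at 47.7, 23.2 and 21.1 CPM across the FOS libraries. TLR7, a sensor of single-stranded RNA in endosomes, was the furthest below (-0.73), at 11.3 CPM in FOS 1 and 12.6 to 26.6 CPM in the rest. MAVS, the adaptor through which IFIH1 signals, stood at 57.6 to 71.6 CPM across the controls and at 59.9, 56 and 67.4 CPM across the FOS libraries.

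Among the signalling factors the median level in FOS 1 was 0.10 log2 units above the mean of the other 5. The highest library was FOS 1 in 9 of 21 (27.2% of all genes). IRF7, the factor that takes the place of IRF3 in chickens, was the furthest above (0.97), at 109, 99.3 and 124 CPM across the controls and at 205, 74.5 and 123 CPM across the FOS libraries. STAT2 (0.56), a transcription factor of the type I response, stood at 50, 50.1 and 53.6 CPM across the controls and at 81, 57.9 and 63.4 CPM across the FOS libraries. Its groups did not overlap, as in 16.4% of all genes, and it did not pass (log2 fold change 0.40, edgeR adjusted p = 0.489). JAK2, a kinase of the interferon gamma receptor, was the furthest below (-0.35). Its level was 78.5, 70.4 and 67.3 CPM across the controls and 51.5, 56.5 and 59.8 CPM across the FOS libraries. The groups of JAK2 did not overlap either (16.4% of all genes), and it did not pass (log2 fold change -0.36, edgeR adjusted p = 0.479).

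Many further effectors were also highest in FOS 1. Of 42 rows measured, some, such as DHX58, ZNFX1 and IRF7, are also in the lists above. Among the 42, FOS 1 was highest in 31 (27.2% of all genes). In 11 it was at least 1 log2 unit above the mean of the other 5 (2.18% of all genes). The median was 0.67. It was also 0.67 among the enterocyte markers, where 5 of 20 were at least 1 log2 unit above. LY6E, a surface protein that restricts or aids viruses in mammals, was the furthest above (3.11), at 299, 278 and 207 CPM across the controls and at 1902, 150 and 200 CPM across the FOS libraries. As in most members, FOS 2 was its lowest library. PLAC8 (2.54), whose row is described as placenta-specific gene 8-like 2, stood at 93.2 CPM in FOS 1 and at 11.1 to 21.3 CPM in the rest. DDX60 (2.07), a helicase that aids RNA sensing in mammals, stood at 221, 129 and 80.5 CPM across the controls and at 455, 63.7 and 101 CPM across the FOS libraries. FOS 1 was not the highest library in all effectors: TNFSF10, a death ligand chosen after its values were seen, stood at 995 to 1358 CPM across the controls and at 1081, 1412 and 1388 CPM across the FOS libraries. IFITM5 was the furthest below (-0.64).

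Among interferon gamma targets and antigen presentation genes FOS 1 was highest in 2 of 15 (27.2% of all genes), GBP1 and TAPBP (0.66). The median was -0.30 log2 units. BF2, a class I chain of the chicken MHC, was the furthest above (0.92), but FOS 3 and not FOS 1 was its highest library. It stood at 1634, 3968 and 2776 CPM across the controls and at 6873, 4364 and 7949 CPM across the FOS libraries. The groups of BF2 did not overlap, as in 16.4% of all genes, and it did not pass (log2 fold change 1.20, edgeR adjusted p = 0.479). GBP1, a guanylate-binding protein, stood at 246 to 269 CPM across the controls and at 393, 202 and 253 CPM across the FOS libraries. BLB2, a class II chain, was the furthest below (-1.36), at 316 CPM in FOS 1 and 274 to 1769 CPM in the rest. Among all other genes that the table annotates to the response to virus, FOS 1 was highest in 29 of 77 (27.2% of all genes), with a median of 0.10.

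**Figure D3:**
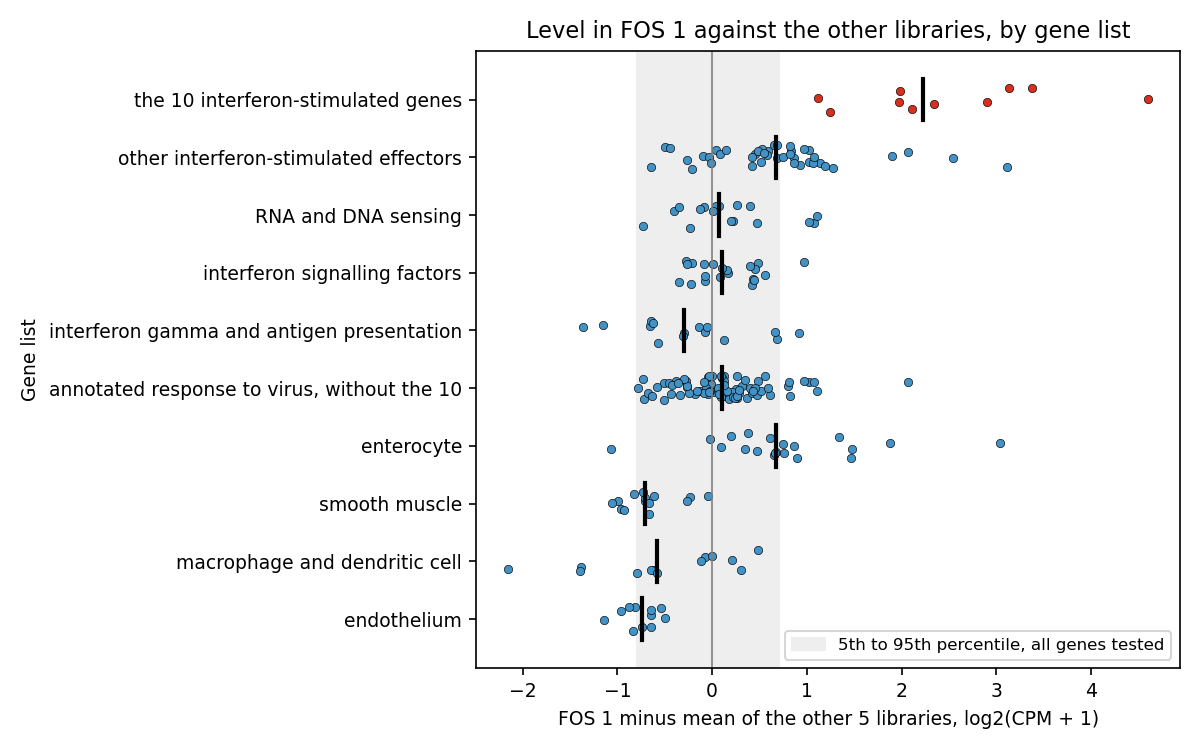
Level in FOS 1 minus the mean of the other 5 libraries, in log2(CPM + 1), for each gene (points) of the lists named at the left, with the list median as a black bar and the 5th to 95th percentile of all genes tested (-0.79 to 0.71) in grey. The 10 members lie between 1.12 and 4.60. Other effectors have a median of 0.67 and so do enterocyte markers (0.67), while sensors and signalling factors centre near 0.

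Some lists of cell type markers also stood apart in FOS 1. By mean log2(CPM + 1) the enterocyte list was highest there, and the smooth muscle, endothelial and macrophage lists were lowest. The part of cell types in the result was not tested. The mean log2(CPM + 1) of the 10 members was 6.30, 5.86 and 5.58 across the controls and 8.26, 5.45 and 5.72 across the FOS libraries. That of the 20 enterocyte markers was 8.74, 9.09 and 8.65 across the controls and 9.75, 9.20 and 9.20 across the FOS libraries. FOS 1 was highest in 13 of 20 (27.2% of all genes). It was above the mean of the other 5 in 18 of 20, by up to 3.04 log2 units for APOA4. MEP1A was furthest below (-1.07) and lowest in FOS 1. CDX2 stands in more than one of the 20 rows. Among the other 5 libraries control 1 was highest for the members, and it was below control 2, FOS 2 and FOS 3 for the enterocyte list. Smooth muscle markers (14 measured) stood at 8.41 to 8.87 across the controls and at 7.95, 8.44 and 8.62 across the FOS libraries, and endothelial markers (11 measured) at 5.39 to 5.52 and at 4.73, 5.43 and 5.61. Macrophage and dendritic cell markers (13 measured) were also lowest in FOS 1, at 5.03, against 5.20 to 5.81 elsewhere. Their genes were split. In 3 of 13, C1QA, C1QB and C1QC, FOS 1 was above the mean of the other 5, by 0.21 to 0.49 log2 units. MARCO was furthest below (-2.15). Their summed CPM was lowest in FOS 3 (1057), with FOS 1 at 1125. Of the red cell list 4 rows were measured, with a median of FOS 1 minus the mean of the other 5 of -1.41 log2 units. In 1 of the 4 rows this difference was positive (0.27). The haemoglobin gene HBA1 stood at 10.6, 23.8 and 30.4 CPM across the controls and at 7.9, 49.5 and 39 CPM across the FOS libraries, and HBBA at 7.99, 21.6 and 19.9 CPM and at 5.74, 48.1 and 31.7 CPM. HBA1 and HBBA, both picked after their values were seen, were lowest in FOS 1, next lowest in control 1 and highest in FOS 2. Most members were lowest in FOS 2. The summed CPM of the red cell rows was lowest in control 1 (136), with FOS 1 at 153. T and NK cell and B and plasma cell markers in FOS 1 stood at 5.37 and 4.80, within the range of the other 5 libraries. The mean of the members minus that of the enterocyte markers was -1.49 in FOS 1 and -3.75 to -2.44 in the others.

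**Figure D4:**
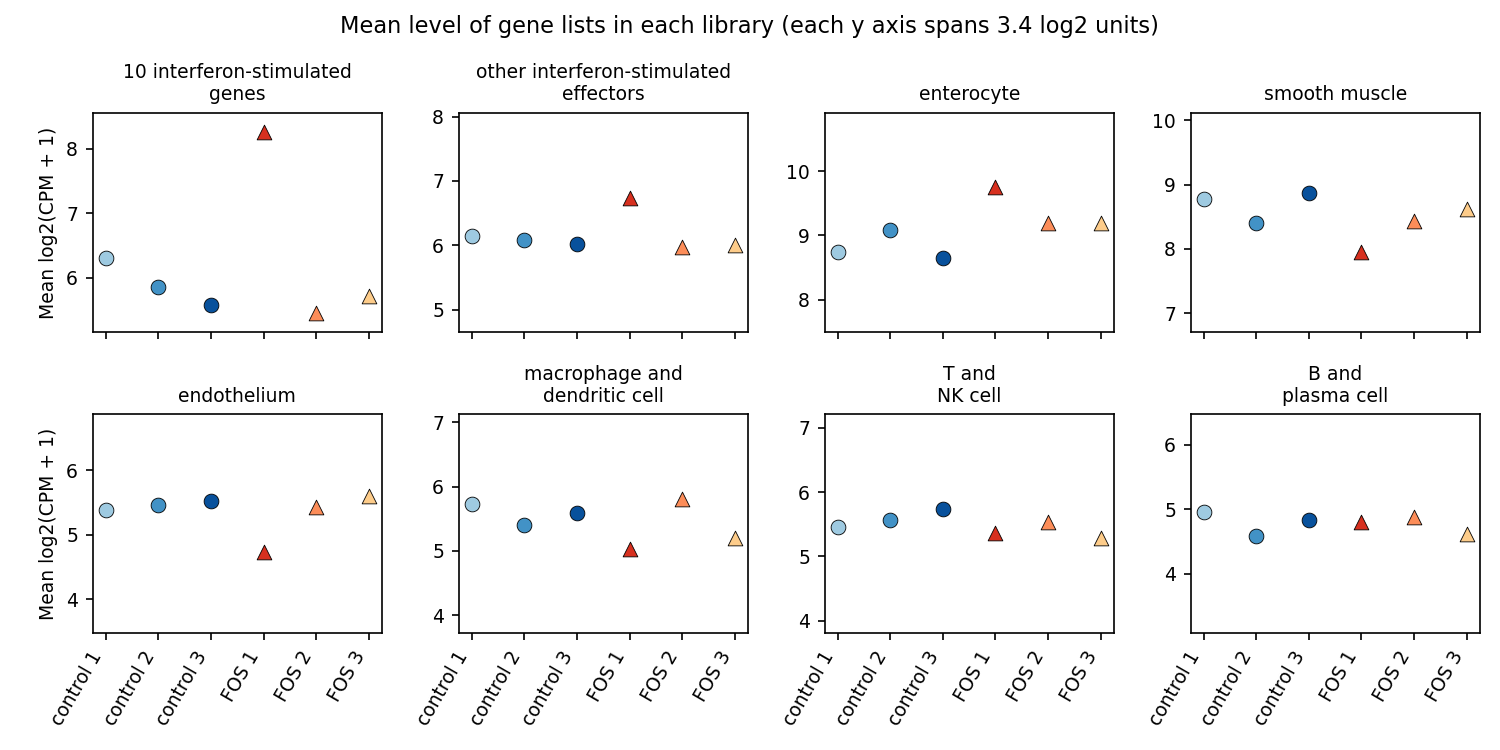
Mean log2(CPM + 1) of the 10 members, of other effectors and of 6 lists of cell type markers in each library, on axes of equal span. FOS 1 is the highest library for the members (8.26), other effectors (6.74) and enterocyte markers (9.75), and the lowest for smooth muscle (7.95), endothelial (4.73) and macrophage markers (5.03).

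The genes whose pattern was most like that of IFI6 were ranked by Pearson's r of log2(CPM + 1) over the 6 libraries, among 2005 named genes with a mean of at least 1 CPM and a range of at least 1 log2 unit. The first 15 held 3 members, OASL in place 5, IFIH1 in place 8 and RSAD2 in place 13. The others were ATP5MC3, CASP8, CYCS, S100A10, NYX, MDH2, TKFC, AIFM2, SEC61B, PACSIN1, MAOA and PHF11. Their values had the same shape on a smaller scale, with FOS 1 above the mean of the other 5 by 0.85 to 1.29 log2 units against 4.60 for IFI6. ATP5MC3, a subunit of ATP synthase, had the highest r (0.9970), at 128, 103 and 108 CPM across the controls and at 211, 110 and 101 CPM across the FOS libraries. CASP8, a caspase that starts apoptosis, followed (0.9874), at 49.1, 37.3 and 39.3 CPM and at 80.1, 42.5 and 43.2 CPM. TKFC, an enzyme of fructose breakdown, and NYX put all 6 libraries in the order of IFI6 (rho 1.00). Without FOS 1 and control 1, the libraries farthest from the median of IFI6, r stayed positive for these 12 genes (0.25 to 1.00). It was -0.65, -0.99 and -0.97 for OASL, IFIH1 and RSAD2, so the likeness of these 3 members to IFI6 rests on FOS 1 and control 1. In the libraries left, IFI6 stood at 95.6 CPM in FOS 2 and at 74.2 to 77.9 CPM otherwise, so these r lean on FOS 2. The other members came after the first 15, from USP18 in place 24 (r 0.963) to EIF2AK2 in place 60 (r 0.934). Their r without FOS 1 and control 1 was not computed.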

How the data were processed

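The 10 members and the gene lists were chosen with earlier results of these data known. The authors deposited 1 table with expected counts (estimates, 8.06% of them further than 1e-09 from a whole number) and FPKM for each library. Per the submitters' processing notes the tools were fastp 0.18.0, Bowtie2, HISAT2, StringTie 1.3.1 and DESeq2, without roles. The labels' protocols name a kit for small RNA libraries. No source used here gives the build or how reads were counted, and coordinates are left out. Another 12 value columns belong to 6 libraries outside the samples described and were not used. Gene names are the table's own or, for 1139 rows, those of RefSeq (GRCg7b) by NCBI gene ID.

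Counts were rounded, filtered by filterByExpr (13807 rows kept), scaled by TMM and tested with edgeR 4.0.16 (quasi-likelihood, R 4.3.3, no covariates, Benjamini-Hochberg over all rows, threshold 0.05). The procedure was run on simulated counts with the same dispersion for all genes, independent genes and no outlying library. That run does not cover a library such as FOS 1. Each SE was obtained as log2 fold change over the root of F. DESeq2 1.42.0 and limma 3.58.1 on log2(FPKM + 1) or log2(FPKM + 0.1) were alternatives, as were RLE factors, other filters, each library left out, presence of W-linked transcripts (HINTW, named Wpkci-7 in the table, above 10 CPM) as a covariate and the replicate number as a block. The numbers come from the sample titles. Libraries of one number deviated together from their group means (r = 0.247, 0.296 and 0.154 over genes). This was taken as pairing since each r exceeded 0.1, and the block was run as an alternative only. Both libraries of numbers 1 and 3 hold W-linked transcripts, and both of number 2 lack them. The part of W-linked transcripts in each r was not tested. The pathway genes named are, in each list, the 3 furthest above and the 1 furthest below in FOS 1. One gene that this rule names is not reported here. MAVS, TNFSF10, ISG20, HBA1, HBBA, and the ligand and lambda receptor rows, found by description, were added after values were seen. Limits given for a count of 0 cover counting error only.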

Additional observations from a re-analysis of the deposited data

How the results depend on the processing

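No member passed with edgeR or limma under any alternative run, and the lowest edgeR or limma adjusted p of a member was 0.425, without FOS 3. DESeq2 called 0 members, but it gave no p for 4 of them (IFI6, IFI27L1, RSAD2 and USP18), so these could not pass. All 10 members reversed without FOS 1: IFI6 to -0.44, IFI27L1 to -0.35, MX1 to -0.45, RSAD2 to -0.52, IFIT5 to -0.29, OASL to -0.29, CMPK2 to -0.42, USP18 to -0.28, EIF2AK2 to -0.40 and IFIH1 to -0.21 (log2 fold change). With the other libraries left out in turn they stayed positive, up to 3.50 for IFI6, 2.38 for IFI27L1, 1.24 for MX1, 2.12 for RSAD2, 1.45 for IFIT5, 1.17 for OASL, 1.12 for CMPK2, 1.98 for USP18, 0.47 for EIF2AK2 and 0.67 for IFIH1. EIF2AK2 also reversed with limma on log2(FPKM + 0.1), to 0.00 (just under 0). The fit without FOS 1 keeps control 1, on which the reversal of IFI6 rests. The median over the members was -0.37 to 1.34 when each library was left out in turn, 0.53 with the replicate block and 0.73 with the W-linked covariate. The median of FOS 1 minus the other 5 (2.23) was 2.11 to 2.23 with RLE factors or FPKM. Over all genes 3 were called, 3 with the replicate block, 0 to 4 when each library was left out in turn (0 without control 1 or control 3, 1 without control 2) and 149 with DESeq2. The cause was not tested. Other effectors had a median log2 fold change of 0.24, and -0.10 without FOS 1. The block changed no call of a member and not the number of genes called.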
